A study of Arabidopsis thaliana with 8 samples.

Results

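Ribosome footprints on the mRNAs of Arabidopsis thaliana mitochondria were compared between flowers of the mutant mtl1 and of the wild type Col-0. The members were all 33 genes of the deposited footprint table, of 33 in all, and each side held 2 libraries, named A and B. Footprints are the short mRNA fragments that ribosomes shield from nuclease, and Ribo-seq sequences them. The whole series holds 8 libraries, of which 6 are Ribo-seq libraries of Col-0, mtl1 and a second mutant, mtsf1. The wild type is the ecotype Col-0, and both mutants are in the same background. The label of mtl1 calls it a ppr mutant and names translation of the nad7 mRNA, and that of mtsf1 names stability of the nad4 mRNA. The sources used here name neither the alleles nor the origin of A and B, so replicates may be technical and a p-value covers no more than the spread of such libraries. Plants of all genotypes grew in a greenhouse under long days for 10 to 12 weeks, flowers were collected at one time, and the labels' protocols give about 2.5 g of flowers ground in 15 mL of buffer.

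Plant mitochondria keep a small genome that encodes core subunits of the respiratory chain and ATP synthase, a few ribosomal proteins and part of the machinery that attaches heme to cytochromes c. These mRNAs are translated by mitochondrial ribosomes, and the start of translation of single mRNAs can depend on nuclear-encoded pentatricopeptide repeat (PPR) proteins, which bind RNA in a sequence-specific way. MTL1 (mitochondrial translation factor 1) is such a protein, named for its role in nad7 translation. The nad7 product belongs to the matrix arm of complex I, the NADH dehydrogenase that passes electrons from NADH to ubiquinone, and plants that lack complex I survive but grow slowly. A footprint count follows both the amount of an mRNA and the density of ribosomes on it. The series holds RNA-seq of Col-0 alone, so mRNA amount and ribosome density cannot be told apart in mtl1. Nor can fewer cells with active mitochondria be told apart from less RNA per cell in such bulk samples.

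The first coding bases of 4 genes are shown because the text returns to them: nad7 is the gene the mutant's label names, nad9 is the other matrix arm gene of complex I, rps12 had the highest log2 fold change and rpl16 begins inside the coding sequence of rps3. Sequences come from the RefSeq mitochondrial genome (MT) of the TAIR10.1 assembly, positions count from 1, and capitals mark the annotated start codon. The sources used here do not name the build the authors used. nad7 lies on the minus strand at MT:245271-245330, nad9 on the plus strand at MT:24665-24724, rps12 on the plus strand at MT:288446-288505 and rpl16 on the plus strand at MT:23285-23344.
nad7: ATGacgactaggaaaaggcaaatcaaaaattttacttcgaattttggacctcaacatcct
nad9: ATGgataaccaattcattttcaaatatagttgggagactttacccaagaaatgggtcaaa
rps12: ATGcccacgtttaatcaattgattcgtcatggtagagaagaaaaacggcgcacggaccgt
rpl16: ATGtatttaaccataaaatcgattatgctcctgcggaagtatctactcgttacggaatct

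The atp6 gene exists in 2 copies that become identical partway, and the join is shown because both copies appear below. The copies were matched to the names atp6-1 and atp6-2 by the copy number in the annotation. Their last 761 coding bases are the same, from position 398 of 1158 in atp6-1 and position 290 of 1050 in atp6-2. Lower case marks 30 bases of the part of each copy before the join and capitals the first 30 bases of the shared part, at MT:49790-49849 on the plus strand and MT:265198-265257 on the minus strand. The sources used here do not say how reads that match both copies were counted, so the values of both are uncertain.
atp6-1: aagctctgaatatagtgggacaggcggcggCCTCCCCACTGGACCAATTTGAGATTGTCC
atp6-2: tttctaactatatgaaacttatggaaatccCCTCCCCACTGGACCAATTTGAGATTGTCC

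Values are normalized read counts, rounded to whole numbers by the authors, and the depth of the libraries is unknown. The totals over the 33 genes were 290301 and 270243 in Col-0 (A and B) and 259933 and 265020 in mtl1. They are not depths, and each value is therefore also given as a share of its library's total where that changes a statement. Differences were tested with limma on log2(value + 1), with p-values adjusted over the 33 genes and a threshold of 0.05, and every log2 fold change below is on that scale, mtl1 over Col-0, as deposited unless shares are named. Replicates differed by a median of 0.31 log2 units in Col-0 and 0.20 in mtl1 over the 33 genes. The table holds mitochondrial genes alone, so the tissue and the purity of the material could not be checked against marker genes.

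**Figure D1:**
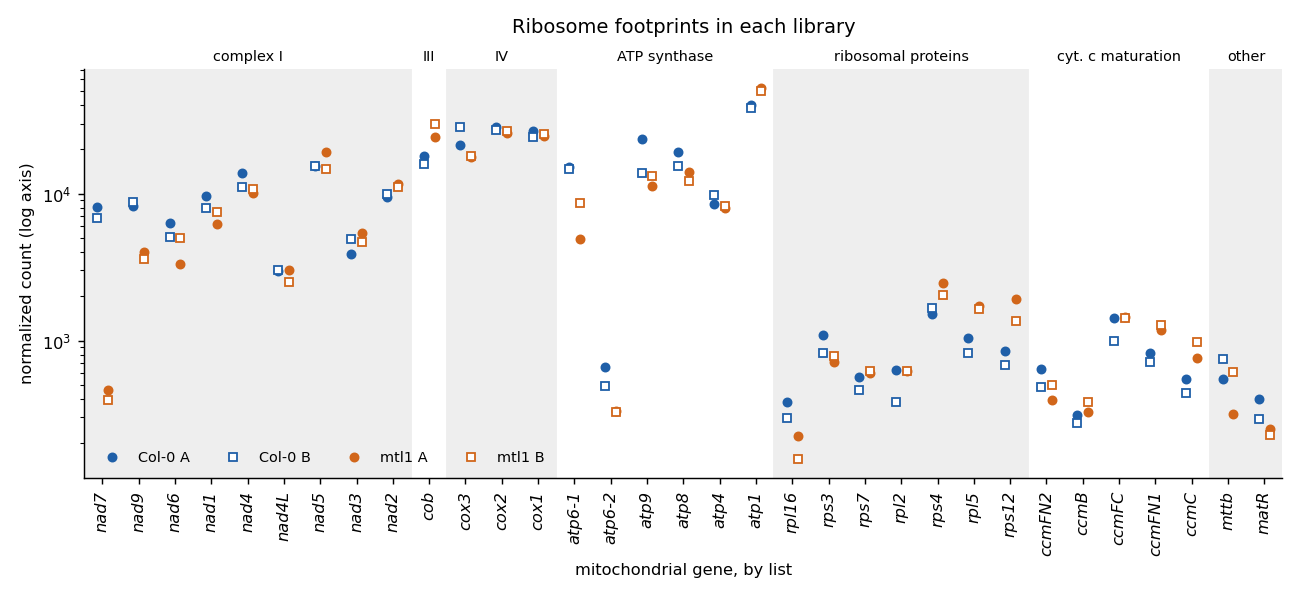
Normalized footprint count (log axis) of each of the 33 genes in Col-0 A, Col-0 B, mtl1 A and mtl1 B, with genes grouped by list and ordered within a list by their log2 fold change. The mtl1 values of nad7, 460 and 394, stand far below the Col-0 values, 8132 and 6785, while most other genes lie close together.

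nad7 fell in mtl1, with the lowest log2 fold change of the 33 genes. Its normalized counts were 8132 and 6785 in Col-0 A and B, and 460 and 394 in mtl1 A and B. Both mtl1 libraries lay far below both Col-0 libraries, and the replicates of each genotype lay close together. As a share of the total, nad7 held 2.80% and 2.51% in Col-0 and 0.177% and 0.149% in mtl1. The log2 fold change was -4.12 as deposited (95% interval -4.59 to -3.66, limma adjusted p = 8.5e-31, n = 2 libraries each) and -4.03 on shares. The gene spans MT:239250-245330 on the minus strand in 5 coding segments with 1185 coding bases. Per coding kilobase it ranked 18 of 33 genes in Col-0, at 6294 ± 804 (SD, n = 2) normalized counts, and 30 of 33 in mtl1, at 360.3 ± 39.4. Its level in mtl1 was 17.4-fold lower on the log2(value + 1) scale, and footprints were still counted on nad7 in both mtl1 libraries.

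The other gene of the complex I matrix arm, nad9, also fell. Its product sits next to that of nad7 in the part of the arm that reduces ubiquinone, and its counts were 8180 and 8716 in Col-0 and 3978 and 3597 in mtl1. The groups did not overlap, and the replicates differed far less than the genotypes. The log2 fold change was -1.16 (95% interval -1.62 to -0.69, limma adjusted p = 3.3e-05), and it lay between -1.23 and -1.09 when any 1 library was left out. In Col-0 nad9 had 1.45 and 1.85 times the median of the 7 membrane arm genes per coding kilobase, and in mtl1 0.875 and 0.815 times. For nad7 the same ratio was 0.697 and 0.698 in Col-0 and 0.0489 and 0.0431 in mtl1. So both matrix arm genes were lower in mtl1 relative to the membrane arm genes of the same libraries, nad7 much more so. The fall of nad9 was not particular to mtl1. Against the same Col-0 libraries nad9 also fell in mtsf1 (log2 fold change of mtsf1 over Col-0 -0.98, limma adjusted p = 0.00018). For nad7 that value was -0.08.

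None of the 7 membrane arm genes of complex I passed the test, where 33.3% of all 33 genes did. nad2, nad4 and nad5 encode the antiporter-like subunits that pump protons, and their log2 fold changes were 0.22, -0.26 and 0.13. nad2 had 9486 and 9988 counts in Col-0 and 11643 and 11068 in mtl1, so its groups did not overlap. nad4 had 13818 and 11147 in Col-0 and 10044 and 10721 in mtl1, again without overlap, in the opposite direction. nad5 had 15349 and 15375 in Col-0, and its mtl1 values of 19061 and 14767 lay on both sides of them.

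nad1, which sits where the membrane arm meets the matrix arm, had 9643 and 8025 counts in Col-0 and 6219 and 7537 in mtl1 (log2 fold change -0.36). The small membrane subunits nad3, nad4L and nad6 had log2 fold changes of 0.21, -0.13 and -0.48. nad6 rested on mtl1 A, with 6297 and 5094 counts in Col-0, 3323 in mtl1 A and 4965 in mtl1 B. Without mtl1 B its value was -0.77 and passed (limma adjusted p = 0.0404), and without mtl1 A it was -0.19. The 95% interval of any gene, unadjusted and from 1 shared variance, reaches 0.46 log2 units, or 1.38-fold, to either side of its value. Smaller differences than that are not resolved for the membrane arm genes, and nad6, at -0.48, exceeded it without passing.

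**Figure D2:**
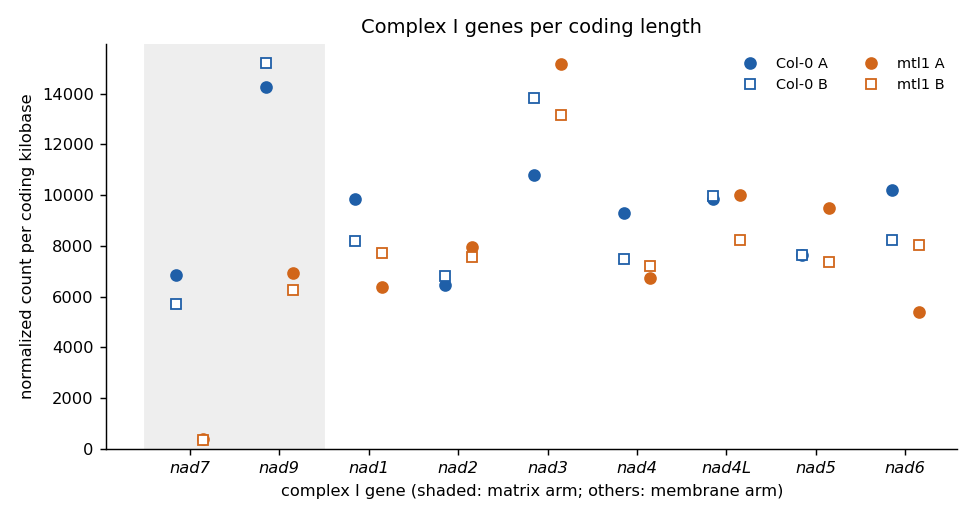
Normalized count per coding kilobase (linear axis from 0) of the 9 complex I genes in each Col-0 and mtl1 library, with the matrix arm genes shaded. nad7 drops from 6862 and 5726 to 388 and 332, nad9 from 14276 and 15211 to 6942 and 6277, and the membrane arm genes stay between 5377 and 15168 in all 4 libraries.

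As a group, the 9 complex I genes held 26.8% and 27.0% of the Col-0 totals and 24.3% and 22.7% of the mtl1 totals, without overlap. Of the 9, 2 fell, none rose and 7 did not pass, a share of falls near the 18.2% over all 33 genes. The median log2 fold change was -0.26 against -0.13 over all 33 genes. The difference of the mean shares was -3.39 percentage points, of which nad7 accounted for -2.49 and nad9 for -1.58, and the other 7 genes together for 0.676. As deposited, the difference of those 7 genes together had the opposite sign, at -2014 counts. Taken without nad7, the group held 24.7% and 25.2% of the remaining Col-0 total and 24.2% and 22.6% of the remaining mtl1 total, a difference of -1.52 points.

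Complex III has a single gene in the table, cob, the apocytochrome b that carries electrons within the complex, and it rose. Its counts were 18163 and 15863 in Col-0 and 24244 and 29832 in mtl1, with every mtl1 value above every Col-0 value. The log2 fold change was 0.66 as deposited (limma adjusted p = 0.018) and 0.76 on shares (adjusted p = 0.0032), where cob held 6.26% and 5.87% in Col-0 and 9.33% and 11.3% in mtl1. As deposited, the call was lost without Col-0 B (0.57, limma adjusted p = 0.116) and without mtl1 B (0.51, adjusted p = 0.187), and it held in the other fits without a library. On shares it was lost without mtl1 B. Set against cox1 within each library, cob had 0.678 and 0.655 times its counts in Col-0 and 0.977 and 1.18 times in mtl1.

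Complex IV, the cytochrome c oxidase, is represented by cox1, cox2 and cox3, and none of the 3 passed. cox1, the catalytic subunit, had 26796 and 24217 counts in Col-0 and 24817 and 25311 in mtl1, with overlapping groups. On shares its groups did not overlap, at 9.23% and 8.96% in Col-0 and 9.55% and 9.55% in mtl1. cox2, which takes electrons from cytochrome c, had 28232 and 26925 in Col-0 and 25896 and 26563 in mtl1. Their log2 fold changes were -0.02 and -0.07 as deposited and turned to 0.07 and 0.02 on shares. cox3 had 21300 and 28300 in Col-0 and 17876 and 18047 in mtl1, a log2 fold change of -0.45 as deposited and -0.36 on shares. Its groups did not overlap, but the Col-0 replicates differed more from each other than either mtl1 library differed from Col-0 A. The group held 26.3% and 29.4% of the Col-0 totals and 26.4% and 26.4% of the mtl1 totals, and the median of its log2 fold changes was -0.07. As deposited, its summed counts were 76328 and 79442 in Col-0 and 68589 and 69921 in mtl1, lower in mtl1 without overlap.

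In the ATP synthase, both copies of the proton channel gene fell, though they may share reads. The gene of the c ring passed narrowly as deposited and not on shares, and the gene of the catalytic head did not pass. Of the 6 genes, 3 fell as deposited (atp6-1, atp6-2 and atp9), none rose and 3 did not pass, beside 18.2% of all 33 genes that fell, and the median log2 fold change was -0.48. On shares 2 of the 6 fell, beside 15.2% of all genes. atp6-1 had 15141 and 14779 counts in Col-0 and 4944 and 8629 in mtl1. It encodes subunit a of the proton channel, and although its mtl1 libraries stood far apart, both lay below Col-0. The log2 fold change was -1.20 (95% interval -1.66 to -0.73, limma adjusted p = 2.5e-05).

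The second copy, atp6-2, had 658 and 491 counts in Col-0 and 333 and 328 in mtl1, with a log2 fold change of -0.78 (limma adjusted p = 0.0049). It no longer passed without Col-0 A (-0.57, limma adjusted p = 0.110) or when the variance was allowed to follow the level of the gene (adjusted p = 0.097). The ratio of atp6-1 to atp6-2 was 23.0 and 30.1 in Col-0 and 14.8 and 26.3 in mtl1, so it overlapped between the genotypes. As the sequences above show, only bases before the join, at position 398 of atp6-1 and 290 of atp6-2, can tell the copies apart.

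atp9, the subunit of the rotating c ring, had 23516 and 13878 counts in Col-0 and 11195 and 13196 in mtl1. The Col-0 replicates stood further apart than Col-0 B stood from mtl1. Its log2 fold change of -0.57 passed narrowly as deposited (limma adjusted p = 0.0486) and did not on shares (-0.48, adjusted p = 0.0867), and it was -0.19 without Col-0 A. Nor did it pass with a variance that follows the level (limma adjusted p = 0.071). Of the genes for stator subunits, atp8 had 19220 and 15337 in Col-0 and 14029 and 12107 in mtl1 (log2 fold change -0.40), and atp4 had 8521 and 9728 in Col-0 and 7996 and 8275 in mtl1 (-0.16). Neither passed.

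atp1, the alpha subunit of the catalytic head, had 40246 and 38577 counts in Col-0 and 52513 and 49869 in mtl1. Its groups were well separated and its replicates close, with a log2 fold change of 0.38 as deposited (limma adjusted p = 0.20) and 0.47 on shares (adjusted p = 0.087). It passed with a variance that follows the level (limma adjusted p = 0.0453). Its share of the total was 13.9% and 14.3% in Col-0 and 20.2% and 18.8% in mtl1. The other 5 ATP synthase genes together held 23.1% and 20.1% in Col-0 and 14.8% and 16.0% in mtl1. The whole group held 37.0% and 34.3% in Col-0 and 35.0% and 34.9% in mtl1, which overlapped. As deposited, its summed counts were 107302 and 92790 in Col-0 and 91010 and 92404 in mtl1, lower in mtl1 without overlap.

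**Figure D3:**
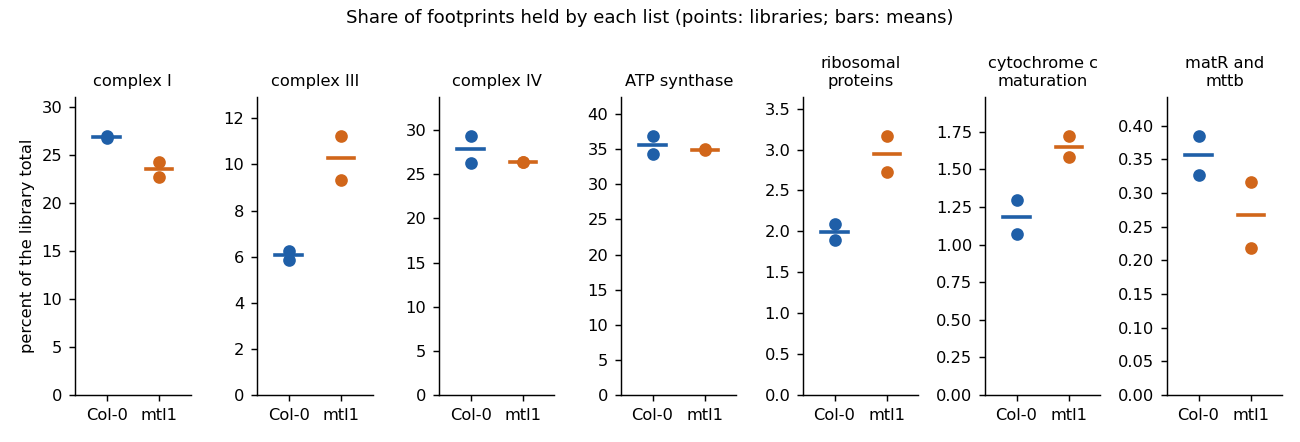
Percent of the library total held by each gene list in Col-0 and mtl1 (points are the 2 libraries, bars their means; each panel has its own axis from 0). Complex III, ribosomal proteins and cytochrome c maturation lie higher in both mtl1 libraries. Complex I and the list of matR and mttb lie lower in both, while ATP synthase and complex IV differ by less than the Col-0 replicates do.

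Among the ribosomal proteins, 2 of 7 genes rose (rps12 and rpl5), 1 fell (rpl16) and 4 stayed under the threshold, so 3 of 7 were called, near the 33.3% over all 33 genes. The median log2 fold change was 0.34. rps12, a small subunit protein of the decoding site, had 845 and 684 counts in Col-0 and 1923 and 1357 in mtl1. All mtl1 values were above the Col-0 values, and the log2 fold change was 1.09 (95% interval 0.62 to 1.55, limma adjusted p = 8.5e-05), with a range of 0.84 to 1.34 when any 1 library was left out. rpl5, a large subunit protein bound to 5S rRNA, had 1040 and 820 counts in Col-0 and 1711 and 1638 in mtl1 (log2 fold change 0.86, limma adjusted p = 0.0026). Without Col-0 B it was 0.69 and did not pass (adjusted p = 0.067).

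rpl16, another large subunit gene, had 382 and 295 counts in Col-0 and 224 and 155 in mtl1 (log2 fold change -0.85, limma adjusted p = 0.0026). It was among the lowest genes of the table, and it did not pass without Col-0 A (-0.66), without mtl1 B (-0.58) or with a variance that follows the level (limma adjusted p = 0.071). Its first 134 coding bases, which include those shown above, are also coding bases of rps3, so the counts of these genes may share reads. rps3 had 1084 and 823 counts in Col-0 and 716 and 787 in mtl1 (log2 fold change -0.33) and did not pass.

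rps4 had 1504 and 1666 counts in Col-0 and 2446 and 2033 in mtl1, a log2 fold change of 0.49 that did not pass as deposited (limma adjusted p = 0.087) and of 0.59 that passed on shares (adjusted p = 0.026). Leaving out either A library, of Col-0 or of mtl1, ended the call on shares. rps7 had 568 and 459 in Col-0 and 604 and 620 in mtl1 (log2 fold change 0.26). rpl2 had 634 and 380 in Col-0 and 618 and 624 in mtl1 (0.34), so that mtl1 lay between its Col-0 replicates as deposited. On shares mtl1 lay above both, at 0.238% and 0.235% against 0.218% and 0.141% in Col-0, and rpl2 did not pass. The share of all 7 was 1.99% ± 0.134 in Col-0 and 2.95% ± 0.317 in mtl1 (SD, n = 2 libraries each). The 4 small subunit genes held 1.38% and 1.34% in Col-0 against 2.19% and 1.81% in mtl1, and the 3 large subunit genes 0.708% and 0.553% against 0.982% and 0.912%, none of which overlapped.

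Cytochrome c maturation joins heme to apocytochromes c, and of its 5 genes ccmC and ccmFN1 rose and 3 did not pass. The share called was near the 33.3% over all 33 genes, and 15.2% of all genes rose. ccmC, which handles heme for delivery to the chaperone, had 547 and 439 counts in Col-0 and 766 and 980 in mtl1 (log2 fold change 0.82, limma adjusted p = 0.0032). ccmFN1, a piece of the split heme lyase, had 827 and 711 in Col-0 and 1183 and 1280 in mtl1 (0.68, adjusted p = 0.016). Both were separated by more than the replicates differed, and neither passed without Col-0 B or without mtl1 B as deposited (0.66 and 0.64 for ccmC, 0.57 and 0.62 for ccmFN1).

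The other pieces of the heme lyase did not pass. ccmFN2 had 644 and 483 counts in Col-0 and 395 and 501 in mtl1 (log2 fold change -0.33), and ccmFC had 1428 and 989 in Col-0 and 1437 and 1428 in mtl1 (0.27). ccmB, a membrane protein of the same pathway, had 311 and 276 in Col-0 and 325 and 384 in mtl1 (0.27). The 5 genes held 1.29% and 1.07% of the Col-0 totals and 1.58% and 1.73% of the mtl1 totals, and their median log2 fold change was 0.27.

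The last genes, matR and mttb, did not pass. matR encodes an intron maturase and had 400 and 293 counts in Col-0 and 251 and 227 in mtl1 (log2 fold change -0.52). It passed without Col-0 B (-0.74, limma adjusted p = 0.0379). mttb encodes a membrane protein related to the TatC protein translocase and had 550 and 748 in Col-0 and 316 and 610 in mtl1 (-0.55). Its groups overlapped, and it was -0.07 without mtl1 A and -1.02, past the threshold, without mtl1 B (adjusted p = 0.0051).

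**Figure D4:**
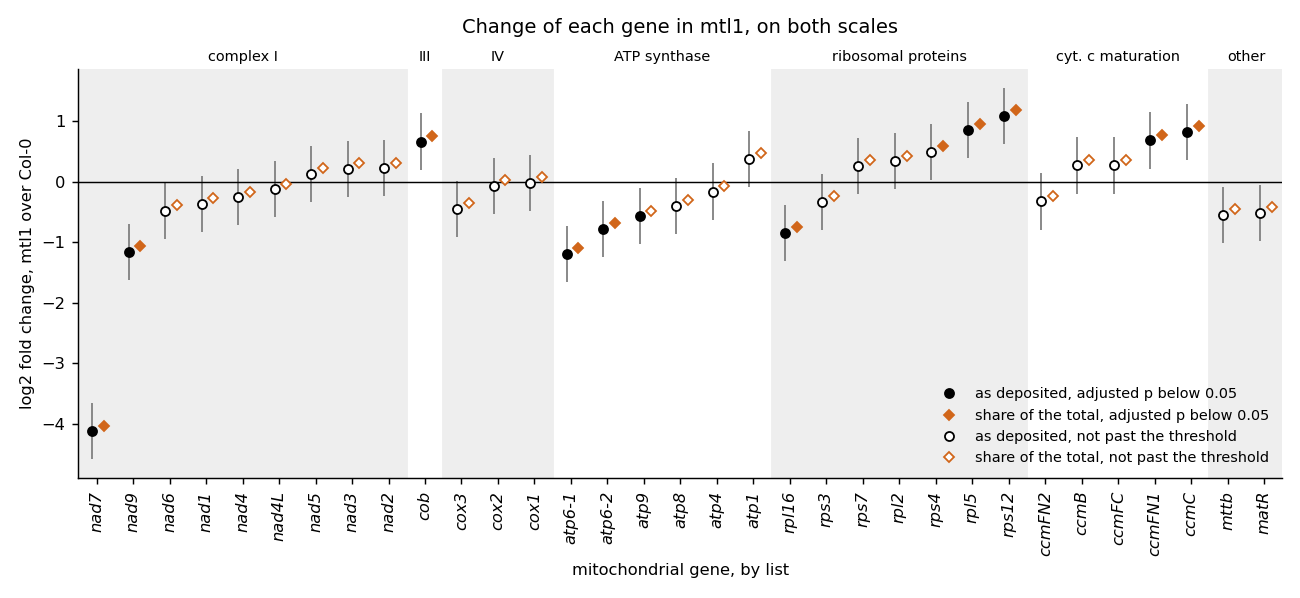
Log2 fold change of mtl1 over Col-0 for each gene as deposited (circles, with 95% intervals from limma) and as share of the total (diamonds), filled where the adjusted p was below 0.05. nad7 lies at -4.12, and every other gene lies between -1.20 and 1.09 as deposited.

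Over the whole table, limma called 11 of 33 genes as deposited (33.3%), 5 higher (15.2%) and 6 lower (18.2%). On shares of the total it called 11 again (33.3%), 6 higher (18.2%) and 5 lower (15.2%), with rps4 in and atp9 out. The median over all genes was -0.13 as deposited and -0.03 on shares. Both mtl1 libraries lay above both Col-0 libraries for 10 genes (30.3%) and below them for 15 (45.5%) as deposited, and for 13 (39.4%) and 13 (39.4%) on shares. Separation of all 4 values was therefore more common than a call.

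The count of calls rests on how the variance was estimated. limma gave all genes the same variance, with a standard error of 0.23 log2 units, and with each gene's own variance on 3 residual degrees of freedom only nad7 passed (limma adjusted p = 0.0073), while 11 genes, nad7 among them, had an unadjusted p below 0.05. When the variance could vary with the footprint level, 9 genes were called, 6 higher and 3 lower, with atp6-2, atp9 and rpl16 lost and atp1 gained. The median SD within genotypes was 0.16 log2 units in the 11 genes with the highest Col-0 means, 0.19 in the middle 11 and 0.24 in the lowest 11. These groups held 3, 3 and 5 calls, where 33.3% of all 33 genes were called. With 2 libraries against 2, an exact permutation test cannot go below p = 0.333, so none was run.

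Seen as parts of the total, the 14 genes with a higher mean in mtl1 as deposited gained 13.4 percentage points together. These differences are in shares of counts and were not divided by gene length. atp1 (5.44 points) and cob (4.23 points) made up 9.67 of them. The largest losses in share were atp6-1 (-2.76 points), nad7 (-2.49), cox3 (-2.06), atp9 (-1.97) and nad9 (-1.58). For cox3 and atp9 the Col-0 replicates stood further apart than the means of the genotypes.

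**Figure D5:**
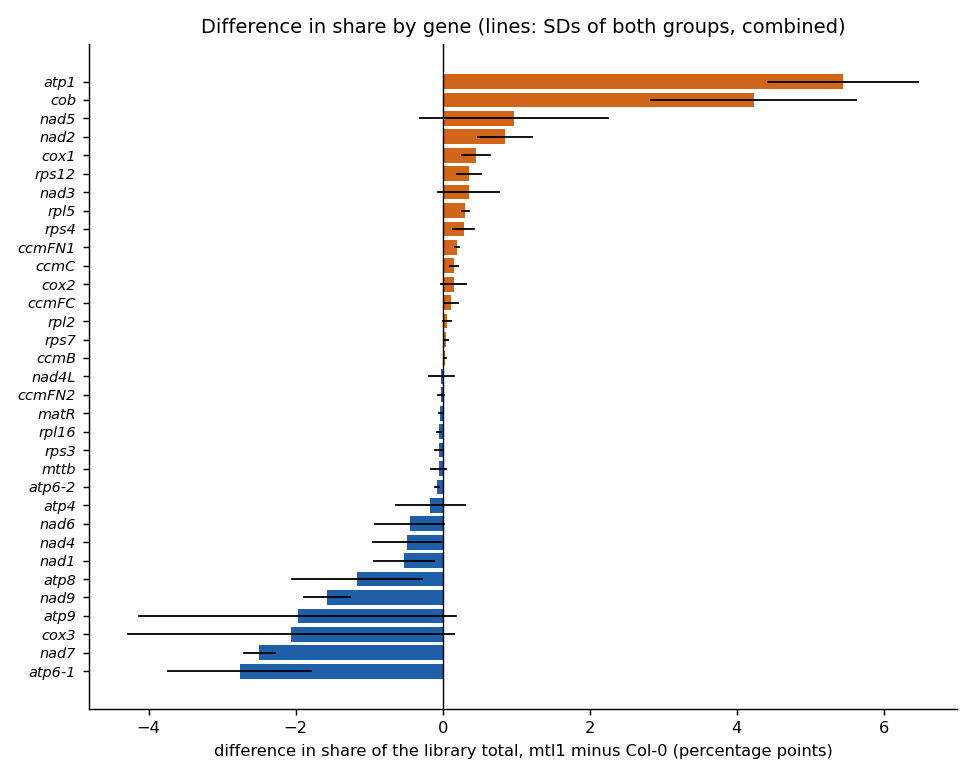
Difference in share of the library total, mtl1 minus Col-0, in percentage points for each gene (bars), with black lines of the SDs of both groups combined as the root of their summed squares (n = 2 each). atp1 and cob extend furthest to the right, at 5.44 and 4.23, and atp6-1 and nad7 furthest to the left, at -2.76 and -2.49.

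Neighbouring genes on the same strand did not always move together. nad3 and rps12 lie 45 bases apart, and rps12 rose while nad3 did not pass, with 0.219 and 0.139 rps12 counts per nad3 count in Col-0 and 0.355 and 0.289 in mtl1. rpl5 and cob lie 1903 bases apart and both rose, by log2 fold changes of 0.86 and 0.66. rps3, rpl16 and nad9 follow each other on the plus strand, with 840 bases between rpl16 and nad9, at -0.33, -0.85 and -1.16. nad9 counts per rps3 count were 7.55 and 10.6 in Col-0 and 5.56 and 4.57 in mtl1. The nearest member to nad7 is atp8, with 1685 bases between them, and its log2 fold change was -0.40. rpl2 and mttb lie 163 bases apart at 0.34 and -0.55, and nad4L and atp4 lie 266 bases apart at -0.13 and -0.16.

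Of the 9 genes whose coding sequence is split by introns, nad7 alone was called, and the others (ccmFC, cox2, nad1, nad2, nad4, nad5, rpl2 and rps3) lay between -0.36 and 0.34. The 24 genes with an unbroken coding sequence held the other 10 calls, 5 in each direction, where 33.3% of all 33 genes were called. Whether these classes differ was not tested. The 3 genes with trans-spliced transcripts, nad1, nad2 and nad5, had a median of 0.13. Across the 32 genes other than nad7, which are not independent replicates, the log2 fold change had r = -0.19 with the Col-0 level, 0.02 with coding length and 0.13 with the GC percent of the coding sequence.

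Whether a change differed between the mutants was tested by the contrast of mtl1 with mtsf1, in which Col-0 cancels. limma called 8 of 33 genes (24.2%) as deposited and 13 (39.4%) on shares. Of the 11 genes called in mtl1 against Col-0 as deposited, nad7 and rpl16 differed between the mutants. nad7 had 7839 and 6273 counts in mtsf1, and the mtl1 value was lower by a log2 difference of -4.04 (95% interval -4.50 to -3.58, limma adjusted p = 2.0e-30). rpl16 had 1126 and 731 counts in mtsf1, above both Col-0 values, and the difference was -2.28 (95% interval -2.74 to -1.81, limma adjusted p = 3.3e-15). The SD of rpl16 within genotypes was 0.37 log2 units, against a median of 0.20 over all 33 genes. These tests used the variance shared by all genes, and this contrast was not run with each gene's own variance. On shares rpl5 differed too (-0.59, adjusted p = 0.026).

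nad9, atp6-1, rps12, ccmC and ccmFN1 did not differ past the threshold, with 95% intervals of the difference from -0.65 to 0.28 for nad9, -0.67 to 0.25 for atp6-1, -0.38 to 0.55 for rps12, -0.61 to 0.32 for ccmC and -0.53 to 0.39 for ccmFN1. Differences up to those bounds remain possible. On shares the differences were -0.42 for nad9, -0.45 for atp6-1, -0.16 for rps12, -0.39 for ccmC and -0.31 for ccmFN1. All of these lay lower than as deposited and none passed, so the bounds above apply to the deposited values alone. nad9 had 4923 and 3746 counts in mtsf1, and atp6-1 had 8294 and 6892, all below the Col-0 values. For atp6-2 the interval ran from -0.28 to 0.64, and for atp9 from 0.08 to 1.01 with a limma adjusted p of 0.064. For cob the difference was 0.42 (95% interval -0.04 to 0.88), and its mtsf1 counts were 22712 and 17816. The changes of both mutants against Col-0 share the same control libraries, so their likeness was not scored.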

How the data were processed

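Adapters, alignment and counting were handled with FastQC, cutadapt 1.9.1, Bowtie 1.1.2 and featureCounts 1.5.0-p2, as the submitters' processing notes list them. The deposited table gives a score for each gene in each library, which is a normalized count in whole numbers. The sources used here state neither its normalization nor the build, annotation or treatment of reads with several matches. The median ratio of the genes to their geometric mean was 1.01 in each of the 6 Ribo-seq libraries. Scaling over these genes would give such equal ratios, so a rise or fall common to all genes may not show. Analysis used values as deposited and values scaled to equal totals (shares). limma 3.58.1 (R 4.3.3) was fitted across all genes to log2(value + 1) of the 6 Ribo-seq libraries, with a mean per genotype. A gene needed a value above 0 in 2 or more libraries, and all 33 had one. Tests were two-sided, with Benjamini-Hochberg adjustment over 33 genes and 0.05 as threshold. The prior was infinite, so each test had 99 degrees of freedom and all genes shared 1 variance. Fits with a variance that follows the level, and with each gene's own variance, were alternatives. The fit was tested on 100 simulated tables in which every gene had the same variance. That test cannot check whether a shared variance suits these genes. Shares and sums of lists were not tested. Coding lengths, positions and sequences came from RefSeq TAIR10.1, where all 33 names were matched. Figures were drawn with matplotlib 3.10.9 in Python 3.11.15. Members and lists were chosen with earlier results of these data known, and all 33 genes are named. RNA-seq editing tables were not used here.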

Additional observations from a re-analysis of the deposited data

How the results depend on the processing

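nad7 passed under every alternative run, with log2 fold changes from -4.25 to -3.94. Of 535 values of the other 32 genes under the alternatives, 481 kept their direction and their side of the threshold, 33 no longer passed, 10 passed where they had not, and 11 changed sign, all of genes that were not called. With each gene's own variance the calls went from 11 to 1 as deposited and from 11 to 2 on shares (nad7 and ccmFN1), and 2 libraries a group leave 3 residual degrees of freedom. With shares, calls between mtl1 and mtsf1 went from 8 to 13. Leaving out 1 library gave 8 to 10 calls as deposited. Of these, 1 was higher and 7 lower without Col-0 B, 2 and 6 without mtl1 B, 6 and 3 without Col-0 A, against 5 and 6 with all libraries. Such fits leave 1 group with a lone library, which is assumed to vary like the others. Centring on the mean log2 value gave 8 higher and 5 lower, and a variance that follows the level gave 6 higher and 3 lower.

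Signs turned for cox1 (0.070 on shares, 0.034 with equal totals without nad7, 0.16 centred), cox2 (0.022 on shares, 0.11 centred), atp4 (0.021 centred) and nad4L (0.057 centred). With 1 library left out, values ranged from -0.096 to 0.050 for cox1, -0.27 to 0.015 for nad4L, -0.057 to 0.31 for nad5 and -0.030 to 0.71 for rpl2. The cause was not tested. For lists, the difference in share was -1.52 points for complex I and -1.63 for ATP synthase without nad7 in the total, and per coding kilobase -1.63 for complex I, -4.13 for ATP synthase and 1.71 for ribosomal proteins, against -3.39, -0.71 and 0.95. Per coding kilobase complex IV turned from -1.46 to 0.27. For ATP synthase it ranged from -2.02 to 0.60 points with 1 library left out, above 0 without Col-0 A, and for complex IV from -3.01 to 0.093, above 0 without Col-0 B.

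A replicate block of the letters A and B gave 10 calls as deposited, with atp9 lost (limma adjusted p = 0.0514), 11 on shares and 8 between the mutants. The letters were not shown to pair the libraries: the A minus B differences of Col-0 and mtl1 had r = 0.066 across genes. The depth behind the values is unknown, so counting error could not be given for any gene.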
